A study of Mus musculus with 32 samples.

Results

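Chemokines are small secreted proteins that steer leukocytes along concentration gradients, and their receptors are G protein-coupled receptors at the cell surface. The CC and CXC families are named after the spacing of conserved cysteines, and atypical receptors bind chemokines without signalling through G proteins. In the myeloid lineage, Cxcr2 and its ligands draw neutrophils out of the marrow and into tissue, Ccr2 does so for monocytes, and Cxcl12 acting on Cxcr4 holds haematopoietic cells in the marrow. The genes described here are the mouse protein-coding genes named as CC, CXC, XC or CX3C ligands, as their receptors, as Ackr receptors or as Ccrl2. By symbol 62 genes matched, and the 61 with a placed position were analysed, out of 21774 placed protein-coding genes. Ccl21c lies on an unplaced scaffold and was not analysed. The 61 comprised 24 CC ligands, 14 CXC and other ligands, 10 CC receptors, 8 CXC and other receptors, and 5 atypical receptors (Ackr1 to Ackr4 and Ccrl2).

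The cells were HoxB8 cells, mouse bone marrow progenitors immortalised with an estrogen-dependent Hoxb8, grown with 0.6 µM estrogen and 2% SCF-conditioned medium, from which estrogen had been removed for 48 h in every group. CUT&Tag, in which an antibody tethers a transposase to a chromatin mark, was run for 3 marks with 10 libraries each. The double group (sgRNA Asxl1 B2 with pMICH-CSF3R-T618I) had 2 libraries per mark, the CSF3R T618I group (non-targeting sgRNA with pMICH-CSF3R-T618I) had 3, the Asxl1 guide group (sgRNA Asxl1 B2 with pMICH-Empty) had 3, and the control group (non-targeting sgRNA with pMICH-Empty) had 2. The T618I substitution makes the receptor for G-CSF signal without its ligand, and Asxl1 is a partner of the deubiquitinase Bap1, which removes ubiquitin from histone H2A. All Asxl1-edited cells carry 1 guide, and the labels do not give clones or separate cultures, so p-values measure only the spread between these libraries. The design asks what the Asxl1 guide changes with and without CSF3R T618I.

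The deposited values are peak positions in mm10, without height or read count, so sequencing depth is unknown. The measure used throughout is the covered fraction, the share of a gene plus 5 kb on each side that lay in peaks. The number of peaks per library ranged from 6071 to 45373 in H3K27me3. It ranged from 10866 to 33969 in H2AK119ub, and from 14479 to 21185 in H3K4me1. The total length in H3K4me1 peaks was 43.5 and 30.0 Mb in double and 41.1, 37.0 and 47.2 Mb in CSF3R T618I. It was 38.3, 26.6 and 34.9 Mb in Asxl1 guide, and 37.9 and 36.6 Mb in control. One H3K27me3 library stood apart: Asxl1 guide replicate 2 had 53.0 Mb in peaks, against 4.73 and 12.4 Mb in the other 2 libraries of its group, so H3K27me3 results are given with and without it. Of 12 granulocyte and monocyte progenitor markers, 10 had an H3K4me1 peak in all 10 libraries, with a summed covered fraction of 2.35 to 4.01 per library. The summed fraction was at most 0.185 over 4 T cell markers, 0.0333 over 4 erythroid and megakaryocyte markers and 0.106 over 4 stromal markers. It was 0.358 to 0.508 over 4 endothelial markers, from 1 of the 4 genes. Asxl1 and Csf3r had no H3K27me3 peak in any library, and these marks do not check the edit or the transgene.

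H3K4me1, a mark of enhancers and of the flanks of active promoters, was the mark found at most chemokine genes. With a covered fraction of at least 0.1 in at least 2 of the 10 libraries as the filter for testing, 23 of the 61 genes (37.7%) passed in H3K4me1, against 12.4% of all placed coding genes. In H2AK119ub, the product of Polycomb repressive complex 1, 13 genes (21.3%) passed, against 13.1% of all. In H3K27me3, the product of Polycomb repressive complex 2, 8 genes (13.1%) passed, against 12.7% of all. The genes are not independent: they fall into 34 loci, 10 of which hold more than 1 of them and 37 of the 61 in all, so these shares are given without a test. In all, 35 genes passed in at least 1 mark, 19 had peaks only below the filter and 7 (Ccl12, Ccl19, Ccl21a, Ccl21d, Ccl26, Ackr4 and Cxcr6) had no peak of any mark in any library. The Ccl21 and Ccl27 genes have near-identical copies, which read mapping may split or drop.

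H3K4me1 and the Polycomb marks fell mostly on different genes. Passing in H3K4me1 alone were 20 genes, among them the neutrophil and monocyte receptors Cxcr2, Cxcr4, Ccr1, Ccr2 and Cx3cr1 and the ligands Cxcl1, Cxcl2, Cxcl3, Ccl3, Ccl4, Ccl5, Ccl6 and Ccl9. Passing in both Polycomb marks but not in H3K4me1 were 4 genes: Cxcl12, the stromal ligand of Cxcr4, Cx3cl1, the membrane-bound ligand of Cx3cr1, the scavenger receptor Ackr3, and Ccr6, the receptor of Ccl20. Ccl22 and Cxcl14 passed in H3K27me3 alone, and Ackr1, Ackr2, Ccl1, Ccl24, Ccr7 and Cxcr3 in H2AK119ub alone. Ccl2, a monocyte attractant, passed in H2AK119ub and H3K4me1. Cxcl16 and Ccr10 passed in all 3 marks, but their windows also hold Med11 and Zmynd15 (Cxcl16) or Plekhh3 and Cntnap1 (Ccr10). No gene of the 8 CXC and other receptors had an H3K27me3 peak in any library, against 39.8% of all placed coding genes with such a peak. Of the 8, 5 had an H2AK119ub peak and 5 an H3K4me1 peak, against 54.3% and 37.6% of all.

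**Figure D1:**
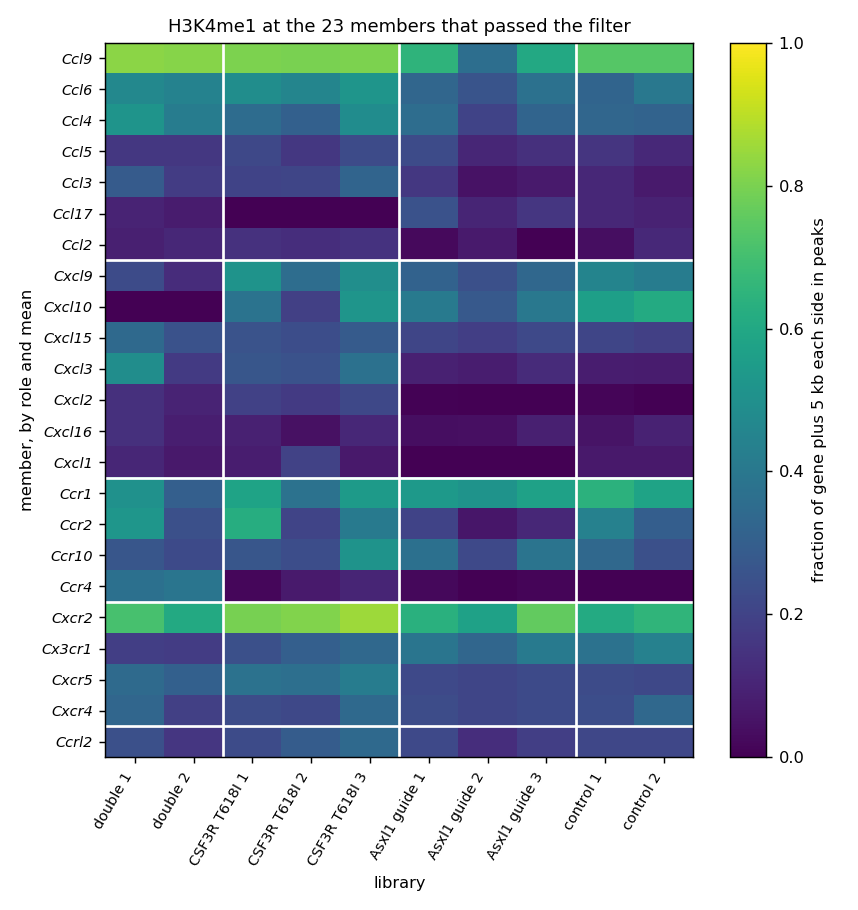
H3K4me1 covered fraction (colour, 0 to 1) of the 23 chemokine and receptor genes that passed the filter (rows, by role and then mean) in each of the 10 libraries (columns, by genotype). Ccl9 and Cxcr2 are bright in nearly every library, Ccr4 is bright in the 2 double libraries, and Cxcl10 is at 0 in both of them.

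The base composition of the promoters is given by mark, without a test. The 250 bases before the start site were read from RefSeq promoters of GRCm38.p6, which matched 47 of the 61 genes with 56 start sites. Their median G+C content was 50.6%, against 52.4% over 32851 start sites in the whole table, and they held a median of 1.6 CpG per 100 bases, against 2.4. With the start sites of a gene averaged, the 6 genes that passed in H3K27me3 had a median of 4.2 CpG per 100 bases (range 1.6 to 6.4). The 10 genes that passed in a Polycomb mark but not in H3K4me1 had 2.2 (range 0.8 to 6.4), and the 17 that passed in H3K4me1 alone had 1.2 (range 0.4 to 7.6), so the ranges overlap. Motifs were searched on both strands. A TATA box (TATAAA) stood in 25% of the 56 promoters and in 12.4% of all, an AP-1 motif (TGANTCA) in 10.7% and 6.75%, and a PU.1 motif (GAGGAAGT) in 1.79% and 2.44%. A kappaB motif stood in 21.4% of the 56 promoters and in 7.25% of all. A match is a run of letters and not a bound site.

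Among H3K4me1 differences, those at Ccr4 between double cells and the other groups had the smallest adjusted p among the chemokine genes. Ccr4 (chr9:114490316-114505476), which encodes the receptor of Ccl17 and Ccl22, had covered fractions of 0.371 and 0.39 in double cells, of 0.0159, 0.0715 and 0.103 in CSF3R T618I cells, of 0.0219, 0 and 0.0139 in Asxl1 guide cells, and of 0 in both control libraries. Both double libraries lay above all 8 others. Ccr4 passed the filter through them and 1 CSF3R T618I library, so high values in double cells were part of its selection. The double mean exceeded that of CSF3R T618I by 0.317 (SE 0.0257, adjusted p = 0.000209 in limma over all 2701 genes tested), that of Asxl1 guide by 0.368 (adjusted p = 5.1e-05 in limma) and that of control by 0.38 (adjusted p = 0.000107 in limma). The effect of the guide with CSF3R T618I exceeded its effect without by 0.305 (SE 0.0363, adjusted p = 0.00463 in limma), the only chemokine gene of 23 with an interaction called, against 1.11% of all genes tested. Each of these 4 calls held in all 10 fits that left out 1 library. Within the window of 5 kb on each side of the start site in place of the gene, the interaction was 0.149 with adjusted p = 0.232 in limma.

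The covered bases at Ccr4 were mostly those of 1 region at chr9:114500301-114508000. Its nearer edge lay at -3.76 kb from the start site in the promoter table and inside the gene record. The region spans the 5′ end of that record (114505476, minus strand), whereas the window around the start site used the promoter table's site alone. It held 7700 and 7450 bp of peaks in the double libraries, 200, 1800 and 2600 bp in the CSF3R T618I libraries, 550, 0 and 350 bp in the Asxl1 guide libraries, and none in control. A pair of smaller regions, at chr9:114497251-114498500 and chr9:114509101-114510476, also held peaks in both double libraries. The merged IgG list had 2 peaks of 700 bp in all under the large region and 1 of 300 bp under the smaller region nearest the start site. When peaks touching an IgG peak were left out, Ccr4 no longer passed the filter and was not tested. The 150 bases before the start site (minus strand, chr9:114496545-114496694) are printed because these regions lie upstream of them, the nearest at -0.707 kb, with the AP-1 motif in capitals.
Ccr4: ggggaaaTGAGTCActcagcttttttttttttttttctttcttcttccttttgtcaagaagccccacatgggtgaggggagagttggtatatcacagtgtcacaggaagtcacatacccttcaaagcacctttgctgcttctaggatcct

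**Figure D2:**
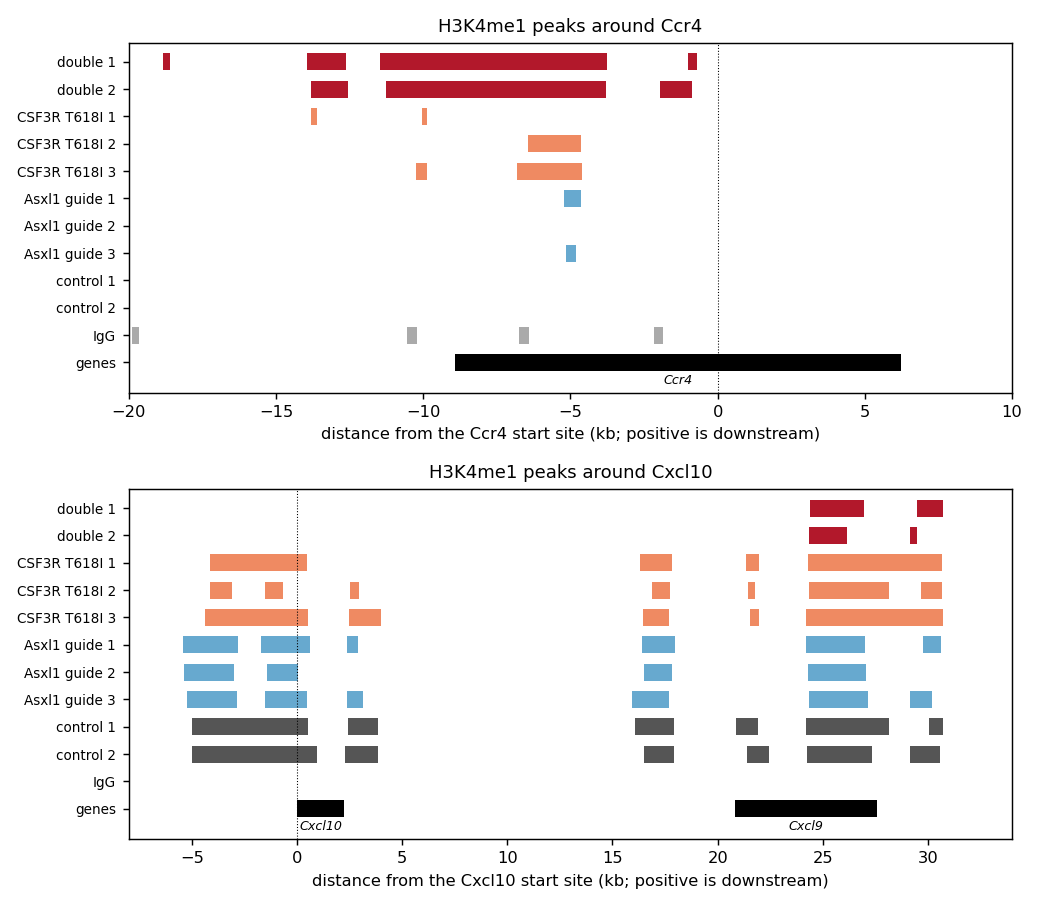
H3K4me1 peaks (bars) in each library around the start sites of Ccr4 (upper panel) and Cxcl10 (lower panel), with IgG peaks and the gene records in the lowest rows, against distance from the start site in kb. The double libraries carry the 7700 and 7450 bp blocks upstream of the Ccr4 start site, partly inside the gene record, and no peak within 5 kb of Cxcl10, where all 8 other libraries have peaks.

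Cxcl10 and Cxcl9, neighbouring ligands of Cxcr3 that are induced by interferon-gamma, had less H3K4me1 in double cells. Cxcl10 (chr5:92346638-92348889) had a covered fraction of 0 in both double libraries, of 0.38, 0.188 and 0.522 in CSF3R T618I, of 0.411, 0.281 and 0.399 in Asxl1 guide, and of 0.566 and 0.611 in control. The double libraries lay below all others. Cxcl10 passed the filter through the other 3 groups and no double library, so high values outside double cells were part of its selection. The difference was -0.363 against CSF3R T618I (adjusted p = 0.0208 in limma), -0.364 against Asxl1 guide (adjusted p = 0.0138 in limma) and -0.589 against control (adjusted p = 0.00307 in limma). The difference from control held in all 10 fits without 1 library. Those from CSF3R T618I and from Asxl1 guide were unchanged in size but not called without double replicate 1 (adjusted p = 0.077 and 0.0807 in limma) or without double replicate 2 (0.113 and 0.0594). Over the gene alone none of the 3 was called, at -0.152 against CSF3R T618I, -0.173 against Asxl1 guide and -0.328 against control (adjusted p = 0.348, 0.266 and 0.0711 in limma).

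Cxcl9 (chr5:92321331-92328079) had 0.227 and 0.128 in double, 0.513, 0.358 and 0.493 in CSF3R T618I, 0.313, 0.245 and 0.334 in Asxl1 guide, and 0.451 and 0.421 in control. It was lower in double cells than in CSF3R T618I cells by a difference of -0.277 (adjusted p = 0.0104 in limma) and than in control by -0.258 (adjusted p = 0.0126 in limma). The first call was lost without double replicate 2 (-0.228, adjusted p = 0.0852 in limma). The other was lost without control replicate 1, control replicate 2 or double replicate 2, where the adjusted p in limma was 0.0817, 0.0642 and 0.0713. Against Asxl1 guide, Cxcl9 differed by -0.12 and did not pass (adjusted p = 0.12 in limma). Both genes share their windows with Art3.

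The H3K4me1 that double cells lacked at Cxcl10 lay mostly over and upstream of its start site. The region chr5:92347951-92353889, which spans the start site, held no peak base in double, 4650, 1900 and 4900 bp in CSF3R T618I, 4539, 3439 and 4139 bp in Asxl1 guide, and 5539 and 5939 bp in control. A smaller region, 2.29 kb downstream of the start site, held none in double and 0, 400 and 1500 bp in CSF3R T618I. It held 500, 0 and 750 bp in Asxl1 guide, and 1400 and 1550 bp in control. At Cxcl9, a region beside the start site (chr5:92326451-92328000) and another at -2.82 kb (chr5:92330901-92332950) had no peak in double. The region beside the start site also had none in Asxl1 guide, and the region over the 3′ part of the gene (chr5:92318151-92324700) kept 3800 and 2150 bp. The 150 bases before each start site are given, with the kappaB and AP-1 motifs of Cxcl10 in capitals. None of the searched motifs was found in those of Cxcl9. The Cxcl10 bases lie inside the region that spans its start site, and the Cxcl9 bases lie between the Cxcl9 regions without a peak in double. Both genes are on the minus strand, Cxcl10 at chr5:92348890-92349039 and Cxcl9 at chr5:92328080-92328229.
Cxcl10: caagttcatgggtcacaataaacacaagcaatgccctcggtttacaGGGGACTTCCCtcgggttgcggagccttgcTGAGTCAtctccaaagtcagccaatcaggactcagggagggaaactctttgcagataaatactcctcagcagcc
Cxcl9: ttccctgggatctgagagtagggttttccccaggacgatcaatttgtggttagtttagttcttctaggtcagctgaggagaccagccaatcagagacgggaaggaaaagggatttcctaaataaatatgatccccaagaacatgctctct

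Cx3cr1, the fractalkine receptor of monocytes, also had less H3K4me1 in double cells. Its covered fraction (chr9:120048683-120068296) was 0.184 and 0.18 in double, 0.245, 0.301 and 0.337 in CSF3R T618I, 0.391, 0.33 and 0.407 in Asxl1 guide, and 0.375 and 0.441 in control. The double libraries lay below every other library, and the lowest value of CSF3R T618I lay below all of Asxl1 guide and control. The difference from Asxl1 guide was -0.194 (adjusted p = 0.00573 in limma) and that from control -0.227 (adjusted p = 0.00476 in limma), and both held in all 10 fits without 1 library. Against CSF3R T618I it was -0.113 and did not pass (adjusted p = 0.0627 in limma), and CSF3R T618I against control was -0.114 (adjusted p = 0.0633 in limma). The region over its start site (chr9:120067951-120071500) held 550 and 800 bp in double, 450, 800 and 1250 bp in CSF3R T618I, 2350, 2300 and 3500 bp in Asxl1 guide, and 2350 and 2450 bp in control. There the CSF3R T618I and double libraries all lay below the Asxl1 guide and control libraries.

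Cxcl2 and Cxcr5 had more H3K4me1 in CSF3R T618I cells than in control. They were 2 of the 23 genes tested (8.7%), both higher, against 11.4% of all genes tested, 9.33% higher and 2.04% lower. With total covered length as a covariate 3 were higher and 3 lower, and with the replicate block 2 were higher and 2 lower. Cxcl2 (chr5:90903899-90905938), a neutrophil attractant acting on Cxcr2, had 0.195, 0.17 and 0.216 in CSF3R T618I cells, against 0.0126 and 0 in control. It had 0.137 and 0.0998 in double cells and 0.0043, 0 and 0 in Asxl1 guide cells. The 5 libraries with CSF3R T618I lay above the 5 without it. Cxcl2 passed the filter only through them, so a difference from control or Asxl1 guide was built into its selection. Its differences from these groups, here and below, are given as a description, and the count of called genes above includes Cxcl2. CSF3R T618I exceeded control by 0.188 (SE 0.0207, adjusted p = 0.000835 in limma), a call that held in all 10 fits without 1 library.

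Double cells exceeded Asxl1 guide cells at Cxcl2 by 0.117 (adjusted p = 0.00573 in limma, lost without double replicate 1, 0.0984 and adjusted p = 0.0529). They exceeded control by 0.112 (adjusted p = 0.0105 in limma), a call lost without control replicate 1, control replicate 2 or double replicate 1, at adjusted p = 0.0543, 0.0835 and 0.0635 in limma. They lay below CSF3R T618I cells by a difference of -0.0754 (adjusted p = 0.0442 in limma), which held in 2 of 10 fits without 1 library, those without Asxl1 guide replicate 2 or CSF3R T618I replicate 2. Without double replicate 2 that difference was -0.0568 (adjusted p = 0.253 in limma). The bases gained lay in a region that starts at the window's edge and ends at -2.75 kb from the start site (chr5:90898899-90901150), with 1002 and 852 bp in double, 2102, 2052 and 2202 bp in CSF3R T618I, 52, 0 and 0 bp in Asxl1 guide, and 152 and 0 bp in control. The 150 bases before the Cxcl2 start site (plus strand, chr5:90903749-90903898) hold a kappaB motif, in capitals, and are shown because the region next to them (chr5:90903101-90903850) held peaks only in the 2 double libraries and 1 CSF3R T618I library.
Cxcl2: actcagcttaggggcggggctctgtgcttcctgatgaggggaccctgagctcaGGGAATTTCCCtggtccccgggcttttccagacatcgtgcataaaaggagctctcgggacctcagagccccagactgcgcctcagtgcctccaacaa

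Cxcr5 (chr9:44511787-44526444), the receptor of Cxcl13 that is best known from follicular B cells, had 0.377, 0.367 and 0.42 in CSF3R T618I cells, against 0.227 and 0.215 in control. It had 0.345 and 0.306 in double cells, against 0.221, 0.209 and 0.225 in Asxl1 guide cells. Again the 5 libraries with CSF3R T618I lay above the 5 without it. CSF3R T618I exceeded control by 0.167 (SE 0.0222, adjusted p = 0.00221 in limma), which held in all 10 fits without 1 library. Double exceeded Asxl1 guide by 0.107 (adjusted p = 0.0101 in limma), a call lost without double replicate 1 (0.0879, adjusted p = 0.0855). Double exceeded control by 0.104 (adjusted p = 0.018 in limma), a call lost without control replicate 1, control replicate 2 or double replicate 1, at adjusted p = 0.0818, 0.11 and 0.0931 in limma.

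The Cxcr5 difference came from a region just outside the gene record, chr9:44526501-44529700. It held 3100 and 2350 bp in double, 3200, 2600 and 3050 bp in CSF3R T618I, and none in any of the 5 Asxl1 guide and control libraries. Over the gene alone Cxcr5 was not called: CSF3R T618I exceeded control by 0.0694 (adjusted p = 0.147 in limma), and double exceeded Asxl1 guide and control by 0.0068 each. The window also holds Bcl9l.

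**Figure D3:**
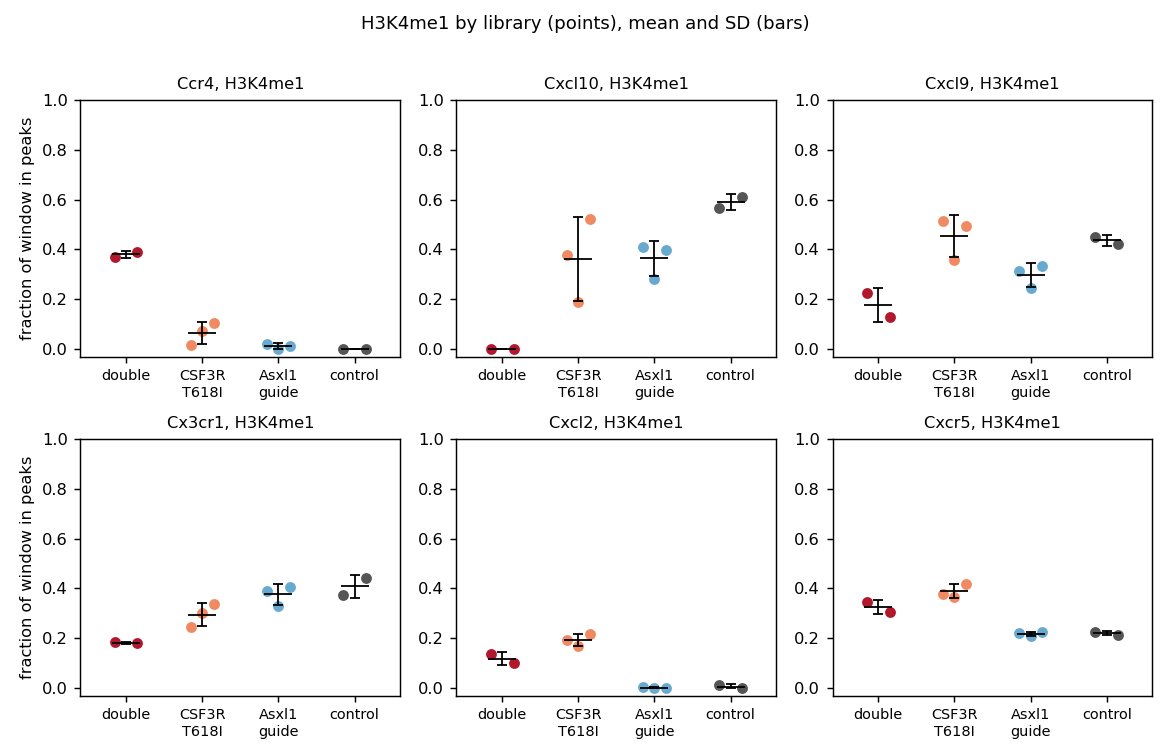
H3K4me1 covered fraction (0 to 1) of 6 genes in each library (points) with the mean and SD (bars) of the double, CSF3R T618I, Asxl1 guide and control groups. Ccr4 is high in double cells alone, Cxcl10, Cxcl9 and Cx3cr1 are low there, and Cxcl2 and Cxcr5 are higher in the 5 libraries with CSF3R T618I.

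The other H3K4me1 calls lay between double and Asxl1 guide cells, where 6 of 23 chemokine genes were higher and 2 lower, 8 calls against 21.7% of all genes tested (11.7% higher and 10% lower). Against control the double cells had 3 higher and 3 lower, against 20.7% of all (8.48% higher and 12.2% lower). Against CSF3R T618I they had 1 higher and 3 lower, against 12.6% of all (1.93% higher and 10.6% lower). The shares of 23 are thus 34.8%, 26.1% and 17.4%. Each count includes Ccr4, Cxcl2 and Cxcl10, which passed the filter only through groups in which they were high. Asxl1 guide against control had no call among the 23, against 0.148% of all genes, with 3 at an unadjusted p under 0.05. Its differences ran from -0.245 at Ccr2 and -0.225 at Cxcl10 to 0.0341 at Ccr10 and 0.0671 at Ccl17.

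Ccl9 and Ccl6 are neighbouring CC ligands of the myeloid lineage. Ccl9 (chr11:83572917-83578636), the gene with the highest mean H3K4me1 beside Cxcr2, had 0.826 and 0.817 in double cells, against 0.652, 0.363 and 0.604 in Asxl1 guide cells. The other libraries lay between 0.735 and 0.804. The lowest value, 0.363, was that of Asxl1 guide replicate 2, the library with the shortest total length in H3K4me1 peaks (26.6 Mb). The difference was 0.282 (adjusted p = 0.02 in limma), and it was lost without double replicate 1 (0.277, adjusted p = 0.101) or double replicate 2 (0.286, adjusted p = 0.0744). Ccl6 (chr11:83587886-83593087) had 0.467 and 0.444 in double, against 0.329, 0.259 and 0.372 in Asxl1 guide. That difference was 0.136 (adjusted p = 0.0309 in limma). It was lost without Asxl1 guide replicate 1, Asxl1 guide replicate 2, double replicate 1 or double replicate 2, at adjusted p = 0.0634, 0.0574, 0.149 and 0.083 in limma. Its bases came from the flanks, since over the gene alone it was -0.0657 (adjusted p = 0.381 in limma). Cxcl15, named here after its values were seen, had 0.343 and 0.254 in double, against 0.208, 0.184 and 0.221 in Asxl1 guide. Its difference of 0.0941 (adjusted p = 0.0475 in limma) held in 2 of 10 fits without 1 library, those without CSF3R T618I replicate 3 or double replicate 2, and without double replicate 1 it was 0.0491. Over the gene alone it was 0.00098 and with 2 kb flanks 0.0024.

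Cxcr2, the main receptor of neutrophil-attracting CXC ligands, was covered by H3K4me1 in every library, and its differences depended on the window. Over the gene plus 5 kb (chr1:74153994-74161246) its fraction was 0.71 and 0.609 in double, 0.794, 0.809 and 0.855 in CSF3R T618I, 0.635, 0.574 and 0.76 in Asxl1 guide, and 0.612 and 0.655 in control. No comparison passed, the nearest being CSF3R T618I above control by 0.186 (adjusted p = 0.0507 in limma). Within 5 kb of the start site, a window added after the data were seen, double differed by -0.285 from CSF3R T618I (adjusted p = 0.0202 in limma), by -0.295 from Asxl1 guide (adjusted p = 0.0122 in limma) and by -0.307 from control (adjusted p = 0.0149 in limma). Over the gene alone the difference from CSF3R T618I was -0.393 (adjusted p = 0.042 in limma). At the other edge of the gene's window, a region at chr1:74164401-74166246 had 1846 and 946 bp in double and 746, 1196 and 796 bp in CSF3R T618I, and none in the Asxl1 guide and control libraries.

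The remaining genes of the myeloid chemokine system did not pass in H3K4me1. Ccr1, a receptor of Ccl3 and Ccl5, had 0.506 and 0.302 in double, against 0.644 and 0.581 in control, a difference of -0.209 (adjusted p = 0.0808 in limma). Cxcl3, a Cxcr2 ligand, had 0.491 and 0.17 in double, against 0.0786 and 0.0745 in control (difference 0.254, adjusted p = 0.0636 in limma), and CSF3R T618I libraries had 0.266, 0.254 and 0.375. Ccl3 and Ccl4, whose windows overlap, differed between CSF3R T618I and control by 0.152 and 0.0576 (adjusted p = 0.0819 and 0.636 in limma). Ccr2 ranged within groups from 0.244 to 0.525 in double and from 0.206 to 0.621 in CSF3R T618I, and no comparison passed. Cxcr4 lay between 0.188 and 0.34 in all 10 libraries. Cxcl1, Ccl2, Ccl5 and Cxcl16 had means over the 10 libraries of at most 0.168 and no call. Ccr7, Ccr9, Xcr1, Ackr1, Ackr3, Cxcl12 and Cxcl14 did not pass the H3K4me1 filter. Ccl17, a Ccr4 ligand, had no peak in the 3 CSF3R T618I libraries and 0.1 and 0.0767 in double (difference 0.0886, adjusted p = 0.136 in limma).

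The mean H3K27me3 of CSF3R T618I cells was the highest of the 4 groups at each of the 8 chemokine genes that passed the filter. The total length in H3K27me3 peaks was 19.2 and 14.2 Mb in double, 31.3, 34.1 and 42.2 Mb in CSF3R T618I, and 15.9 and 22.7 Mb in control. With the log2 of that length as a covariate, the 2 Ccr6 differences described next were 0.363 (adjusted p = 0.0108 in limma) and -0.236 (adjusted p = 0.014 in limma). At Ccr6 (chr17:8236041-8258519), found on dendritic cells and lymphocytes, it covered 0.419, 0.374 and 0.556 of the window in CSF3R T618I cells, against 0.0292 and 0.0308 in control. It covered 0.156 and 0.134 in double cells, and 0, 0.199 and 0.0216 in Asxl1 guide cells. The 3 CSF3R T618I libraries lay above the 7 others. Ccr6 passed the H3K27me3 filter through the other 3 groups and no control library, so high values outside control were part of its selection. It was the only 1 of 8 genes called in these comparisons. CSF3R T618I exceeded control by 0.42 (SE 0.0712, adjusted p = 0.0457 in limma, against 0.907% of all 2755 genes called), and double differed from CSF3R T618I by -0.305 (SE 0.0712, adjusted p = 0.0344 in limma, against 13.2% of all).

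The size of the Ccr6 differences held while the calls did not. Leaving out 1 library, the first difference ran from 0.366 to 0.457 and was called in 2 of 10 fits, those without Asxl1 guide replicate 2 or CSF3R T618I replicate 1. The other ran from -0.343 to -0.252 and was called in 2 of 10, those without Asxl1 guide replicate 1 or 2. Without Asxl1 guide replicate 2, the library that stood apart, the adjusted p values in limma were 0.00511 and 0.00274. Peaks lay over the first start site at chr17:8234751-8239650, with 0 and 700 bp in double, 4700, 1850 and 4900 bp in CSF3R T618I, and none in Asxl1 guide or control. The 150 bases before that start site (plus strand, chr17:8235893-8236042) are given as the promoter inside this region, and none of the searched motifs was found in them.
Ccr6: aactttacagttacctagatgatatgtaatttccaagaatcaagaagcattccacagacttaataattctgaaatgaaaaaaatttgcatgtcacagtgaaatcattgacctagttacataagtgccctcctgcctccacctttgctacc

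The other 7 genes did not pass the test with all libraries in the fit. Cxcl12 (chr6:117168535-117181368), the ligand of Cxcr4 and Ackr3, had 0.3 and 0.16 in double, 0.388, 0.397 and 0.506 in CSF3R T618I, 0.0372, 0.57 and 0.175 in Asxl1 guide, and 0.234 and 0.293 in control. The highest and the lowest of these are both Asxl1 guide libraries. Cxcl14 had 0.162 and 0.173 in double, against 0.303, 0.347 and 0.371 in CSF3R T618I. Cx3cl1 had 0.205 and 0.111 in double, against 0.296, 0.301 and 0.301 in CSF3R T618I. Over the 8 genes the median of double minus CSF3R T618I was -0.186, against -0.13 over all 2755 genes, and that of CSF3R T618I minus control was 0.13, against 0.0972. Without Asxl1 guide replicate 2, all 7 of the genes then tested were lower in double than in CSF3R T618I, against 70.1% of all genes. In the same fit Ccr10 (-0.329, adjusted p = 0.0204 in limma) and Cxcl14 (-0.127, adjusted p = 0.0435 in limma) were lower in Asxl1 guide cells than in control, against 15.4% of all genes, and Ccr6 and Cxcl14 (0.115, adjusted p = 0.0276 in limma) were higher in CSF3R T618I than in control, against 35% of all.

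The CpG-rich Cxcl12 promoter (plus strand, chr6:117168385-117168534) is printed for comparison with that of Ccr6, since Cxcl12 had the highest mean H3K27me3 (0.306) after Ccr10. It has 12 CpG in 150 bases, against none at the first start site of Ccr6, and none of the searched motifs. The 150 bases before the other Ccr6 start site in the table hold 2 CpG and a kappaB motif. They lie in an H3K27me3 region (chr17:8241401-8244850) with 2950 and 1300 bp in double, 2350, 2900 and 3400 bp in CSF3R T618I, 0, 3450 and 0 bp in Asxl1 guide, and 250 and 350 bp in control.
Cxcl12: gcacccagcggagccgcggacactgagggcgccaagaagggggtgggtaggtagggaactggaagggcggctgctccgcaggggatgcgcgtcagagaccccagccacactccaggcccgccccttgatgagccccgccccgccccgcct

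With all libraries, no chemokine gene was called in H3K27me3 between Asxl1 guide and control, double and Asxl1 guide, or double and control, nor in the interaction, and 0% of all genes were called by limma in each of these. The count at an unadjusted p under 0.05 was 0 of 8 in the first 3 and 1 of 8, Ccr6, in the interaction (difference -0.348, adjusted p = 0.441 in limma). For Asxl1 guide against control the differences ran from -0.203 at Ccr10 and -0.0626 at Cx3cl1 to 0.0292 at Ccl22 and 0.0434 at Ccr6. For double against Asxl1 guide they ran from -0.0793 at Ackr3 and -0.0379 at Cxcl16 to 0.0713 at Ccr6 and 0.0744 at Ccr10. For double against control they ran from -0.129 at Ccr10 and -0.0978 at Cxcl16 to 0.0032 at Ccl22 and 0.115 at Ccr6.

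**Figure D4:**
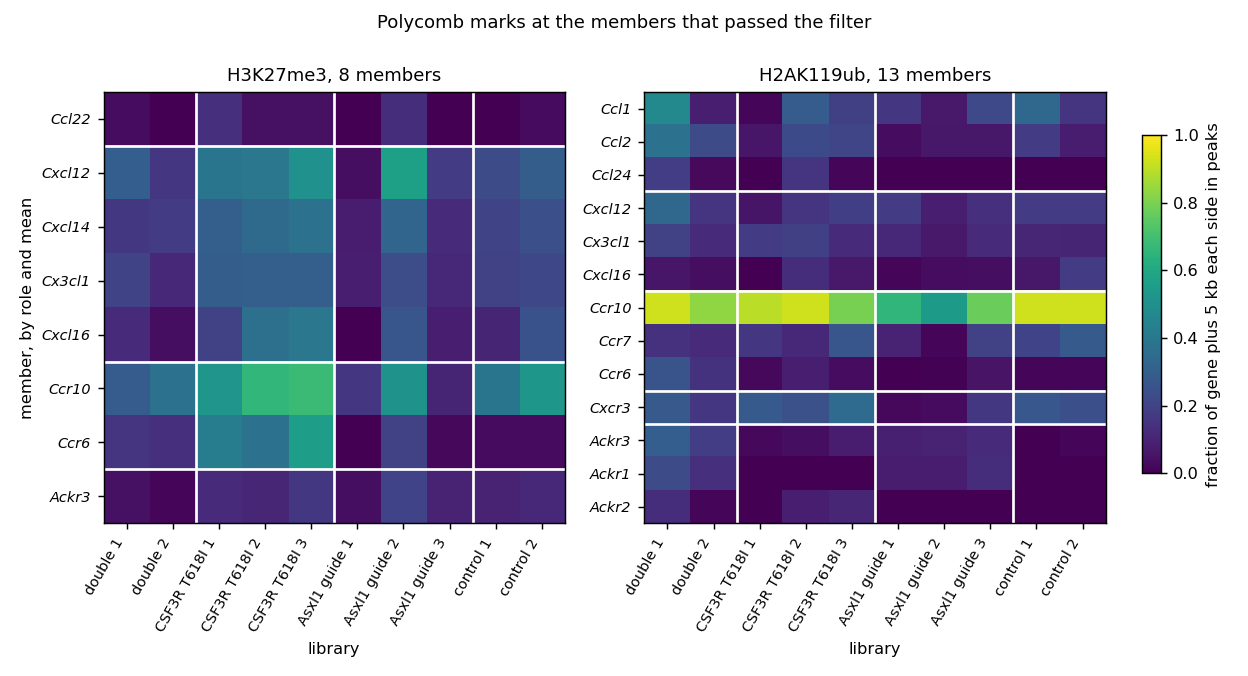
Covered fraction (colour, 0 to 1) of H3K27me3 (left) and H2AK119ub (right) at the chemokine and receptor genes that passed the filter (8 and 13 rows) in each of 10 libraries per mark (columns, by genotype). In H3K27me3, Asxl1 guide 2 is brighter than the other 2 libraries of its group at every gene, and in H2AK119ub the window of Ccr10 is bright throughout.

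H2AK119ub was higher in double cells than in CSF3R T618I and control cells at the atypical receptors Ackr3 and Ackr1. Of all genes tested, 4.27% were called higher in double than in CSF3R T618I and 4.73% higher than in control. The total length in H2AK119ub peaks was 39.1 and 22.6 Mb in double, 18.8, 28.7 and 28.2 Mb in CSF3R T618I, 11.8, 13.4 and 16.7 Mb in Asxl1 guide, and 21.2 and 19.9 Mb in control. Ackr3 (chr1:90203980-90215724), which scavenges Cxcl12, had 0.298 and 0.182 in double, 0.023, 0.0356 and 0.0759 in CSF3R T618I, 0.0897, 0.0943 and 0.123 in Asxl1 guide, and 0 and 0.0184 in control. Ackr1 (chr1:173331886-173333503), the Duffy receptor of red cells and endothelium, had 0.232 and 0.133 in double, none in CSF3R T618I, 0.0818, 0.0775 and 0.129 in Asxl1 guide, and none in control. At both genes the double libraries lay above all others and every Asxl1 guide library above every control library. Each gene passed the filter through the 2 double libraries and 1 Asxl1 guide library, and no CSF3R T618I or control library reached 0.1. A difference of double from CSF3R T618I or control was thus built into the selection, and those that follow are given as a description. Ackr3 exceeded CSF3R T618I by 0.195 (SE 0.0391, adjusted p = 0.0171 in limma) and control by 0.23 (adjusted p = 0.0134 in limma). Ackr1 exceeded each by 0.183, with an adjusted p in limma of 0.0167 against CSF3R T618I and 0.0261 against control. Against Asxl1 guide neither passed, at 0.137 for Ackr3 (adjusted p = 0.0534 in limma) and 0.0868 for Ackr1 (adjusted p = 0.15 in limma). With the log2 of total covered length as a covariate the differences from CSF3R T618I and control were 0.169 and 0.179 at Ackr3 and 0.163 and 0.142 at Ackr1, and all 4 stayed called.

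These calls depended on single libraries. Without double replicate 1 the Ackr3 differences were 0.137 (adjusted p = 0.056 in limma) and 0.173 (0.0532), and the Ackr1 differences were 0.133 each (0.0544 and 0.0985). The Ackr3 difference from control was also lost without control replicate 1 or 2 (adjusted p = 0.105 and 0.0819 in limma). That of Ackr1 was lost as well without control replicate 1 or 2, or Asxl1 guide replicate 1 or 2 (adjusted p from 0.0502 to 0.139 in limma). Both Ackr1 calls were lost with the replicate block (adjusted p = 0.0549 and 0.068 in limma), and the one from control without peaks under 400 bp (0.0718). The window of Ackr1 also holds Cadm3. At both genes the largest region spanned the start site: at Ackr3 (chr1:90200251-90204650) it held 4400 and 3100 bp in double against 0 and 400 bp in control, and at Ackr1 (chr1:173331501-173333650) 1600 and 1350 bp in double against none in control. H3K27me3 ran the other way at Ackr3, with 0.0437 and 0.0184 in double, against 0.122, 0.106 and 0.161 in CSF3R T618I and 0.0966 and 0.115 in control, and did not pass.

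Ccr6 carried H2AK119ub mainly in double cells, with 0.259 and 0.148, against 0.0216, 0.0831 and 0.0323 in CSF3R T618I, 0, 0.0062 and 0.0508 in Asxl1 guide, and 0.0123 and 0.0139 in control. It passed the filter through the 2 double libraries alone, so that a difference was built into its selection, and without either of them it was not tested. The differences were 0.158 from CSF3R T618I, 0.184 from Asxl1 guide and 0.19 from control, and they are given as a description. With no filter on coverage the adjusted p in limma was 0.0496, 0.0275 and 0.0401. With total covered length as a covariate the difference from Asxl1 guide was 0.0669 (adjusted p = 0.608 in limma), and with the replicate block none of the 3 passed (0.102, 0.0625 and 0.0869). H3K27me3 at Ccr6 was highest in CSF3R T618I cells and H2AK119ub in double cells.

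Ccl2 H2AK119ub was 0.377 and 0.227 in double cells, against 0.0337, 0.0632 and 0.0632 in Asxl1 guide cells, with 0.0589, 0.223 and 0.211 in CSF3R T618I and 0.177 and 0.0758 in control. Double exceeded Asxl1 guide by 0.249 (adjusted p = 0.0312 in limma). Ccl2 passed the filter through the other 3 groups and no Asxl1 guide library, so high values outside Asxl1 guide cells were part of its selection. The call was lost without double replicate 1 (0.174, adjusted p = 0.297) and without Asxl1 guide replicate 1, 2 or 3 (adjusted p = 0.108, 0.0848 and 0.0699 in limma). With the log2 of each library's covered length as a covariate the difference was 0.0327.

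In its 10 libraries the window of Ccr10, a receptor of skin-homing lymphocytes, held 0.928 and 0.836 of H2AK119ub in double, 0.896, 0.928 and 0.796 in CSF3R T618I, 0.659, 0.547 and 0.772 in Asxl1 guide, and 0.928 in both control libraries. The 3 Asxl1 guide libraries lay below the 7 others. Asxl1 guide differed from control by -0.269 (SE 0.0641, adjusted p = 0.0337 in limma). The call was lost without control replicate 1 or 2 (adjusted p = 0.154 and 0.153 in limma), and without Asxl1 guide replicate 1 or 2 (adjusted p = 0.109 and 0.0852 in limma, the difference being -0.213 without replicate 2). With total covered length, lowest in Asxl1 guide, as a covariate it was -0.219 (adjusted p = 0.17 in limma), and with the replicate block -0.278 (0.0648). A single merged region of peaks spans almost the whole window, which Ccr10 shares with Plekhh3 and Cntnap1, so the value is not of Ccr10 alone.

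Counted by comparison, H2AK119ub was called at 1 of 13 genes between Asxl1 guide and control, against 11% of all 2857 genes (0.35% higher and 10.7% lower), at 3 between double and CSF3R T618I, against 12.1% (4.27% higher and 7.81% lower), at 2 between double and Asxl1 guide, against 10.6% (10.5% higher), and at 3 between double and control, against 7.07% (4.73% higher). The last 3 counts each include Ccr6, which passed the filter only through the double libraries, and among the other 12 genes they were 2, 1 and 2. Those left against CSF3R T618I and against control were Ackr3 and Ackr1, which no CSF3R T618I or control library carried through the filter. Against Asxl1 guide, Ccl2 was left, which no Asxl1 guide library carried through the filter. The calls between double cells and the other groups were all higher. CSF3R T618I against control and the interaction had no call, against 0.56% and 0% of all genes in limma, with 0 and 3 of 13 at an unadjusted p under 0.05. In CSF3R T618I against control the differences ran from -0.0773 at Ccl1 and -0.0639 at Ccr7 to 0.0568 at Cx3cl1 and 0.0638 at Ackr2. In the interaction they ran from 0.0012 at Cx3cl1 and 0.0077 at Ackr2 to 0.211 at Ccl2 and 0.278 at Ccr10. Ccr7, the receptor that guides dendritic cells to lymph nodes, had 0.144 and 0.117 in double, against 0.201 and 0.283 in control, and Cxcr3, the receptor of Cxcl9 and Cxcl10, had 0.277 and 0.159, against 0.27 and 0.246. Neither passed.

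**Figure D5:**
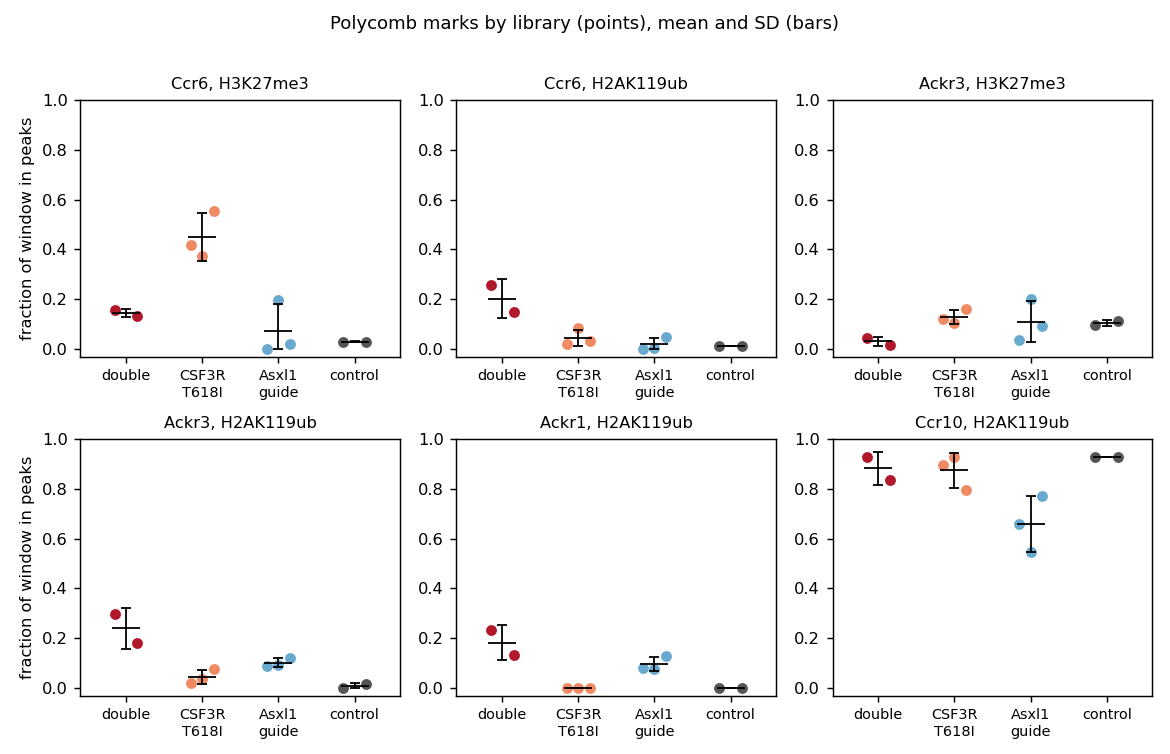
Covered fraction (0 to 1) of H3K27me3 or H2AK119ub at 4 genes in each library (points) with the mean and SD (bars) of the double, CSF3R T618I, Asxl1 guide and control groups. Ccr6 has most H3K27me3 in CSF3R T618I cells and most H2AK119ub in double cells, and Ackr1 and Ackr3 have most H2AK119ub in double cells.

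Other genes of chemokine signalling and of neutrophil chemotaxis were taken from a list of 38, of which 24 passed the filter in H3K4me1. In CSF3R T618I against control 4 of the 24 were higher and none lower, against 9.33% of all genes higher and 2.04% lower. Among them were Fpr1 and Fpr2, receptors of formylated bacterial peptides, with differences of 0.381 (adjusted p = 0.00252 in limma) and 0.397 (adjusted p = 0.0126 in limma). The other 2 were Rac1, a small GTPase of cell movement (0.146, adjusted p = 0.0111 in limma), and Arrb2, a β-arrestin that desensitises receptors (0.17, adjusted p = 0.026 in limma). Fpr2 and Rac1 passed the filter only through libraries with CSF3R T618I, so their differences from control were built into their selection. The mean of Fpr1 was 0.485 ± 0.107 in CSF3R T618I (SD, n = 3) and 0.105 ± 0.0364 in control (n = 2).

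In double against control 4 of the 24 were higher: Fpr1 (0.321), Fpr2 (0.28), Rgs2 (0.128), a regulator of G protein signalling, and Pf4 (0.19), a platelet CXC chemokine outside the naming rule, against 8.48% of all genes higher. In double against Asxl1 guide the same 4 symbols were higher and Plcb2, a phospholipase downstream of chemokine receptors, was lower (-0.204, adjusted p = 0.027 in limma), against 11.7% of all genes higher and 10% lower. In double against CSF3R T618I, Pf4 alone was higher (0.202, adjusted p = 0.0347 in limma), against 1.93% of all genes. Pf4 passed the filter through the double libraries alone, with means of 0.244 in double, 0.0426 in CSF3R T618I, 0.0548 in control and 0 in Asxl1 guide. Its differences were built into its selection and are given as a description, and each count of higher genes here includes it. Fpr2 and Rgs2 passed only through libraries with CSF3R T618I, so the same holds for their differences from control and Asxl1 guide. No gene of the 24 was called by limma between Asxl1 guide and control or in the interaction, with 0 and 1 at an unadjusted p under 0.05. The median difference over the 24 between double and control was -0.0178, against -0.0188 over all genes tested.

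In H2AK119ub 7 of the 38 genes passed the filter. Fpr2 was higher in Asxl1 guide than in control (0.144, adjusted p = 0.0457 in limma), against 0.35% of all genes. Plcb2 (0.175) and Rgs16 (0.231), another regulator of G protein signalling, were higher in double than in Asxl1 guide, against 10.5% of all genes. In H3K27me3 2 of the 38 passed, and Rgs16 was lower in double than in CSF3R T618I (-0.263, adjusted p = 0.0297 in limma), against 13.1% of all genes.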

How the data were processed

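CUT&Tag for H3K27me3, H2AK119ub and H3K4me1 was analysed in 30 libraries, with a list merged from 2 IgG libraries as background. The authors deposited peak positions in mm10 as chromosome, start and end, with no score, fold or coverage. Bowtie2 2.4.1 and deepTools 3.5 are named in the submitters' processing notes, and the peak caller is not given in the sources used here. Peaks were deposited as 1 list per library for the marks, and their widths are multiples of 50 bp, from 200 bp. Since no reads or depths were used, no counting interval can be given.

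For each library the fraction of each gene plus 5 kb on each side lying in peaks was computed, with gene positions from RefSeq (GRCm38.p6), leaving out 113 genes on scaffolds. Genes that reached 0.1 in 2 or more libraries of a mark were fitted in limma 3.58.1 (R 4.3.3) with 1 mean per genotype over all 10 libraries. The 6 contrasts were tested two-sided, adjusted by Benjamini-Hochberg over all genes tested, and called at an adjusted p under 0.05. The scripts were tested on simulated data. Tables and figures used Python 3.11.15, numpy 2.4.6, pandas 2.3.3 and matplotlib 3.10.9.

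The genes named are those called, up to 4 by p in each direction per mark and comparison, or the 2 highest and 2 lowest differences where none was called, with a list of 22 chemokine genes and the 3 highest means per mark. The genes and lists were chosen with earlier results of these data known. Alternatives changed the filter, the window, the peaks used, a covariate for covered length, the replicate block, and each library left out in turn. The B cell marker list is not reported here.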

Additional observations from a re-analysis of the deposited data

Results flagged for a closer look

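At Ccr4 the H3K4me1 difference made by the Asxl1 guide was larger with CSF3R T618I than without, and this interaction was called in limma. Ccr4 passed the filter through the 2 double libraries and 1 CSF3R T618I library, so high values in double cells were part of its selection. The guide's difference with CSF3R T618I minus that without was 0.3046 of the window (SE 0.0363, adjusted p = 0.00463 in limma), from fractions of 0.371 and 0.39 in double, 0.0159, 0.0715 and 0.103 in CSF3R T618I, 0.0219, 0 and 0.0139 in Asxl1 guide, and 0 in both control libraries. It was called in each fit without 1 library. It was not called over the gene alone (0.278, adjusted p = 0.0764 in limma) or within 5 kb of the start site (0.149, adjusted p = 0.232 in limma), and Ccr4 was not tested once peaks touching an IgG peak were left out.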

How the results depend on the processing

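Counts below are of chemokine genes called by limma, and the cause of each change was not tested. Of 32 calls over 14 genes, 9 held in every fit without 1 library: 9 of 21 in H3K4me1, 0 of 9 in H2AK119ub and 0 of 2 in H3K27me3. The 9 include those at Ccr4, the Cxcl2 difference of CSF3R T618I from control and the Cxcl10 difference of double from control. These genes passed the filter only through groups in which they were high, and leaving out 1 library does not remove that selection. Without 1 library the H3K4me1 counts were 0 for Asxl1 guide against control, 2 to 5 for CSF3R T618I against control, 1 to 6 for double against CSF3R T618I, 2 to 10 for double against Asxl1 guide, 3 to 7 for double against control and 1 for the interaction. In H2AK119ub they were 0 to 2, 0, 0 to 3, 0 to 7, 0 to 3 and 0 in the same order. In H3K27me3 they were 0 to 2, 0 to 2, 0 to 7, 0, 0 and 0.

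In H3K27me3, CSF3R T618I against control (1 gene) had 2 with no filter and 0 with a minimum of 0.2, over the gene alone, with 2 kb flanks, by any overlap or with the replicate block. Double against CSF3R T618I (1) had 0 over the gene alone, with 2 kb flanks, by any overlap or with the replicate block. In H2AK119ub, Asxl1 guide against control (1) had 2 with a minimum of 0.2 and 0 with no filter. It had 0 over the gene alone, with 2 kb flanks, around the start site or with the covered-length covariate. Around the start site 7 genes were tested in place of 13. Ccr10, and Ccl2 in double against Asxl1 guide, have no start site in the promoter table and were not tested there. With a minimum of 0.2, 5 genes were tested. Double against CSF3R T618I (3) had 0 with a minimum of 0.2, 6 with no filter, and 1 by any overlap or with the replicate block. Double against Asxl1 guide (2) had 5 with no filter, 1 with a minimum of 0.2, without IgG-touching peaks or around the start site, and 0 by any overlap, with the covariate or with the replicate block. Double against control (3) had 0 with a minimum of 0.2, 7 with no filter, and 1 by any overlap or with the replicate block, and the interaction (0) had 1 with no filter.

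In H3K4me1, Asxl1 guide against control (0) had 1 by any overlap. CSF3R T618I against control (2) had 0 over the gene alone and 1 with 2 kb flanks, around the start site or by any overlap. It had 6 with the covariate (3 lower) and 4 with the replicate block (2 lower). Around the start site 17 genes were tested in place of 23. Cxcr5 has no start site in the promoter table and was not tested there. Double against CSF3R T618I (4) had 2 without IgG-touching peaks or by any overlap. Double against Asxl1 guide (8) had 4 with no filter, over the gene alone or with 2 kb flanks, 5 without IgG-touching peaks, 2 by any overlap, 14 with the covariate and 13 with the replicate block. Double against control (6) had 1 by any overlap, 11 with the covariate and 10 with the replicate block. The interaction (1) had 0 over the gene alone, without IgG-touching peaks or around the start site, and 3 by any overlap.

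Directions turned, in H3K4me1, for Ccl6 in double against Asxl1 guide over the gene alone (-0.0657) and with 2 kb flanks (-0.0371), and for the Ccr4 interaction by any overlap (-0.6667). For Cxcr2 they turned around the start site, in double against Asxl1 guide (-0.295) and against control (-0.3075), where the value with 5 kb flanks was near 0. The window around the start site was chosen after seeing the data. The replicate numbers were not taken as pairs, since not every same-numbered pair deviated together (correlation over 0.1): 3 of 13 did in H3K27me3, 0 of 13 in H2AK119ub and 8 of 13 in H3K4me1. In H3K4me1, where 5 of 24 pairs with different numbers did so, some sharing by number is a hint from the data, and the labels do not say what a number marks.

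Peak positions carry no depth, so whether an absent peak reflects shallow sequencing cannot be judged here, and with 2 double and 2 control libraries per mark a call can rest on 1 of them.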
